A study of Homo sapiens with 6 samples.

Results

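The ID proteins and the core of bone morphogenetic protein (BMP) signalling were followed as 10 genes, ID1, ID2, ID3, ID4, SMAD6, BAMBI, SMAD1, SMAD5, BMPR1A and BMPR2, chosen by name from the 58735 genes of the deposited count table. RNA sequencing of 6 Panc-1 libraries gave their levels. Panc-1 is an established human pancreatic cancer line of epithelial type with the genotype label WT. Cells of 3 libraries were kept next to cancer-associated fibroblasts (CAF) for 72 h, and their count columns are headed CAF-NC. Those of 3 more were kept, for the same 72 h, next to CAF that overexpressed PAI-1. All Panc-1 cells were grown in DMEM with serum. The labels do not say how PAI-1 was overexpressed, whether the CAF were 1 line, how the cells were separated before extraction, or whether replicates were separate experiments, and the tests therefore weigh only the variation among these libraries. The extraction text speaks of Cal27, another cell line, with Stattic or DMSO, whereas every other label names Panc-1.

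BMPs are secreted ligands of the TGF-beta superfamily that bind pairs of type I and type II serine/threonine kinase receptors. The type I receptor phosphorylates SMAD1, SMAD5 and SMAD9, which enter the nucleus with SMAD4 and switch on target genes, the ID genes among the best known of them. ID proteins carry a helix-loop-helix without a DNA-binding basic region, bind E proteins and keep them off DNA, and are linked to proliferation and a less differentiated state. ID genes are also known to respond quickly to serum and growth factors, and SMAD6 and BAMBI act as feedback brakes on the receptors.

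Library totals lay between 13628508 and 16006880 counts. Levels are CPM, that is, counts scaled to a common library total after TMM scaling, which corrects for library size and composition, and changes are CAF overexpressing PAI-1 minus CAF on the log2 scale with their standard error (SE). A gene is said to have risen or fallen where the Benjamini-Hochberg adjusted p of edgeR's quasi-likelihood test over all tested genes was under 0.05. Of 14960 genes tested, 2571 (17.2%) rose and 2239 (15.0%) fell, 32.2% in all, and library size alone as scaling gave 1839 and 3182. PAI-1 replicate 2 stood apart from its group, with 3.78% of counts from mitochondrial genes against 4.76% and 5.12%, and all 3 lay below the CAF libraries, at 5.53% to 5.92%. Of 6 epithelial markers, KRT8, KRT18 and KRT19 stood at 1015 ± 31.6, 581 ± 22.8 and 208 ± 7.83 CPM in the CAF libraries (SD, n = 3). KRT7, EPCAM and CDH1 were far lower there, at 8.16 ± 0.62, 7.06 ± 0.46 and 1.67 ± 0.21 CPM. With PAI-1 overexpression 4 of the 6 rose, 0 fell and 2 were not called, beside 17.2% rising and 15.0% falling over all genes. Of the 4, KRT8 was called in 10 of 14 alternative analyses. No library reached 1 CPM for 10 of 16 fibroblast markers. A total of 13 counts with CAF and 9 with PAI-1 overexpression came from FAP, POSTN, DCN, LUM, COL1A2, PDGFRB and PDGFRA combined. The summed level of the 16 markers was 502 to 519 CPM in the CAF group and 646 to 740.0 CPM in the PAI-1 group, most of it from COL1A1, S100A4 and FBLN1, and its part in the results was not tested. Immune markers were all under 1 CPM, as were 3 of 4 endothelial markers, while KDR had 0.83 ± 0.22 and 1.85 ± 0.61 CPM.

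ID1, ID2 and ID3 were higher next to CAF overexpressing PAI-1, and no other member moved as far. ID3, ID2 and ID1 rose 4.61-fold, 2.74-fold and 2.39-fold, SMAD1 rose 1.34-fold and BMPR2, the main type II receptor gene, fell to 0.851 of its level. These are bulk libraries, in which more cells that express a gene and more RNA per cell cannot be told apart. SMAD5, SMAD6 and BMPR1A were not called, and ID4 and BAMBI held too few reads to be tested. The 4 rises and 1 fall among 8 tested members stand beside 17.2% and 15.0% over all genes. Each of the 8 had at least 69 counts in every library, so none entered the test through 1 group alone. The groups did not overlap for 5 of the 8, against 43.4% of all tested genes.

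**Figure D1:**
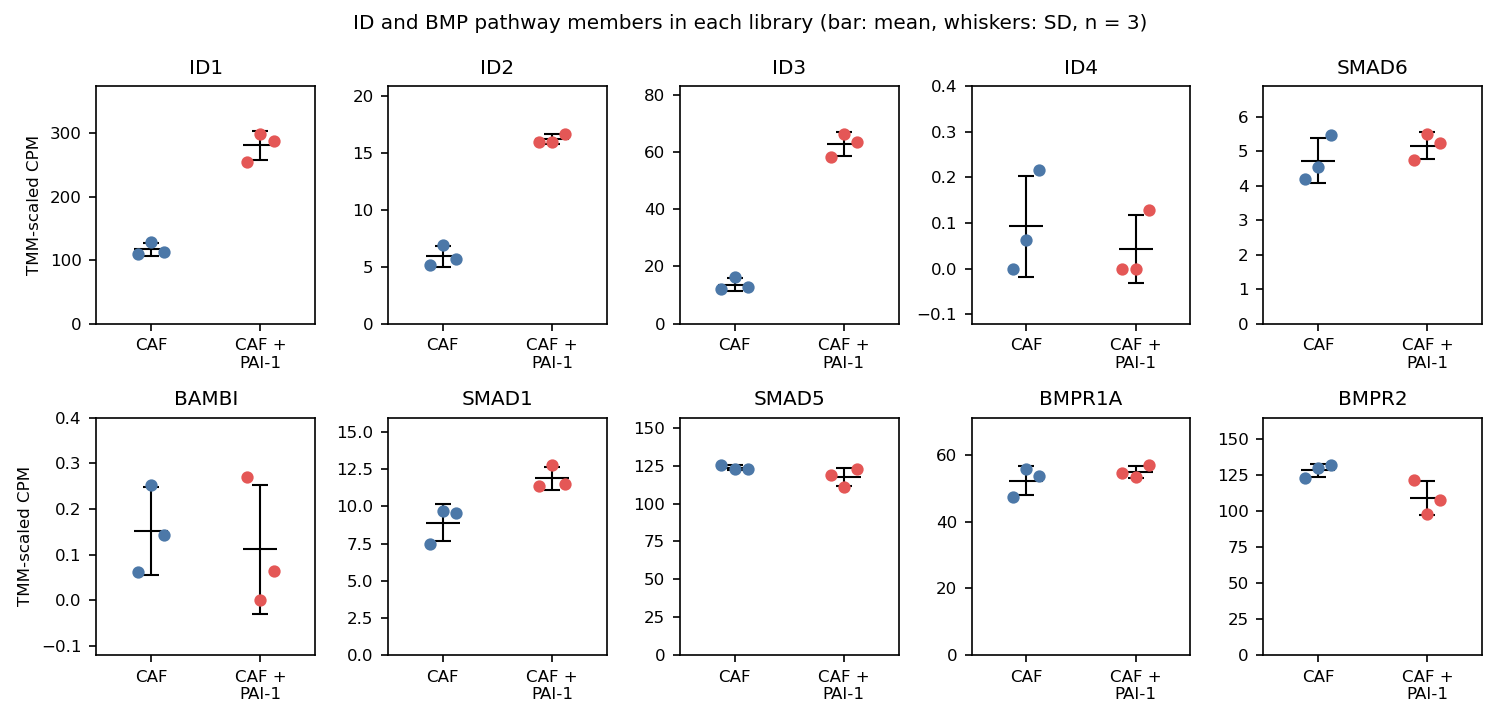
TMM-scaled CPM of the 10 members in each library, with CAF libraries in blue and libraries with CAF overexpressing PAI-1 in red, and the mean and SD of 3 libraries in black. Each panel has its own axis. ID1, ID2 and ID3 lie well apart in the groups, while ID4 and BAMBI reach at most 0.216 and 0.271 CPM.

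ID1 (ENSG00000125968, plus strand) occupies chromosome 20 from 31605283 to 31606515 on GRCh38, and encodes the founding member of the family. Its level was 109, 129 and 113 CPM in CAF replicates 1, 2 and 3 and 255, 299 and 288 CPM in the PAI-1 replicates. The lowest PAI-1 library lay far above the highest CAF library. The mean went from 117 ± 10.5 to 281 ± 23.2 CPM (SD, n = 3 each), a log2 difference of 1.26 (SE 0.065, adjusted p = 7.1e-16).

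ID3 (ENSG00000117318, minus strand) occupies chromosome 1 from 23557918 to 23559794, and like ID1 is a dominant-negative partner of E proteins. It stood at 11.9, 16.3 and 12.6 CPM with CAF and at 58.1, 66.4 and 63.5 CPM with CAF overexpressing PAI-1. All CAF libraries lay far below the lowest PAI-1 library. The mean rose from 13.6 ± 2.34 to 62.7 ± 4.22 CPM (log2 change 2.20, SE 0.096, adjusted p = 2.2e-18), which placed ID3 at rank 19 of the 14960 tested genes ordered from the largest rise. ID2 and ID1 stood at ranks 61 and 101. Without PAI-1 replicate 2 the log2 fold changes of ID3, ID2 and ID1 were 2.16, 1.46 and 1.21.

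ID2 (ENSG00000115738, plus strand) occupies chromosome 2 from 8678845 to 8684453, and is the member known also to bind the retinoblastoma protein. Its level was 5.10, 6.93 and 5.68 CPM with CAF and 15.9, 15.9 and 16.7 CPM with CAF overexpressing PAI-1. Here the PAI-1 libraries lay close to each other and clear of the CAF libraries. The log2 fold change was 1.45 (SE 0.14, adjusted p = 2.31e-10). ID2-AS1, an antisense gene whose exons overlap those of ID2, held 1 to 8 counts per library against at least 79 for ID2.

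ID4 (ENSG00000172201), on chromosome 6 from 19837386 to 19840684, held 0, 1 and 3 counts in the CAF libraries and 0, 0 and 2 in the PAI-1 libraries. A count of 0 allows up to 3 counts, or 0.182 to 0.218 CPM depending on the library, by counting error alone, so that no difference was detectable at this depth. The rise in the family was thus measured in 3 of its 4 genes.

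Per kilobase of exon, which allows a rough comparison of genes, ID1 made up most of the ID RNA in every library. The length was that of all GENCODE exons of a gene merged, 1233 bases for ID1, 2205 for ID2 and 1797 for ID3. Which transcripts were present was not examined, so levels and shares compared between genes are approximate. ID1 stood at 95.0 ± 8.50 CPM per kilobase with CAF, ID3 at 7.56 ± 1.30, ID2 at 2.68 ± 0.42 and ID4 at 0.040 ± 0.047. With CAF overexpressing PAI-1 the same levels were 228 ± 18.9, 34.9 ± 2.35, 7.33 ± 0.20 and 0.018 ± 0.032. Levels of ID1, ID3 and ID2 kept this order in both groups with no overlap between neighbours, and only ID4 lay near 0. The summed level of the family went from 105 ± 10.2 to 269.8 ± 21.2 CPM per kilobase, 2.56 times higher.

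The make-up of the family also stood apart between the groups. ID1 held 90.8%, 89.5% and 90.5% of the summed ID level in the CAF libraries and 83.9%, 84.6% and 84.5% in the PAI-1 libraries. ID3 took 7.14% ± 0.52 with CAF and 12.9% ± 0.18 with CAF overexpressing PAI-1, and the groups did not overlap for either gene. Within each library, where scaling cancels, the ratio of ID3 to ID1 was 1.94 times higher with PAI-1 overexpression and that of ID3 to ID2 1.68 times higher. The exact two-sided permutation test gave p = 0.1 for each, the smallest value that 3 libraries against 3 allow, and 0.15 adjusted over the 3 ratios compared. The ratio of ID2 to ID1 was 1.15 times higher and its groups overlapped (exact permutation p = 0.2, adjusted 0.2).

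**Figure D2:**
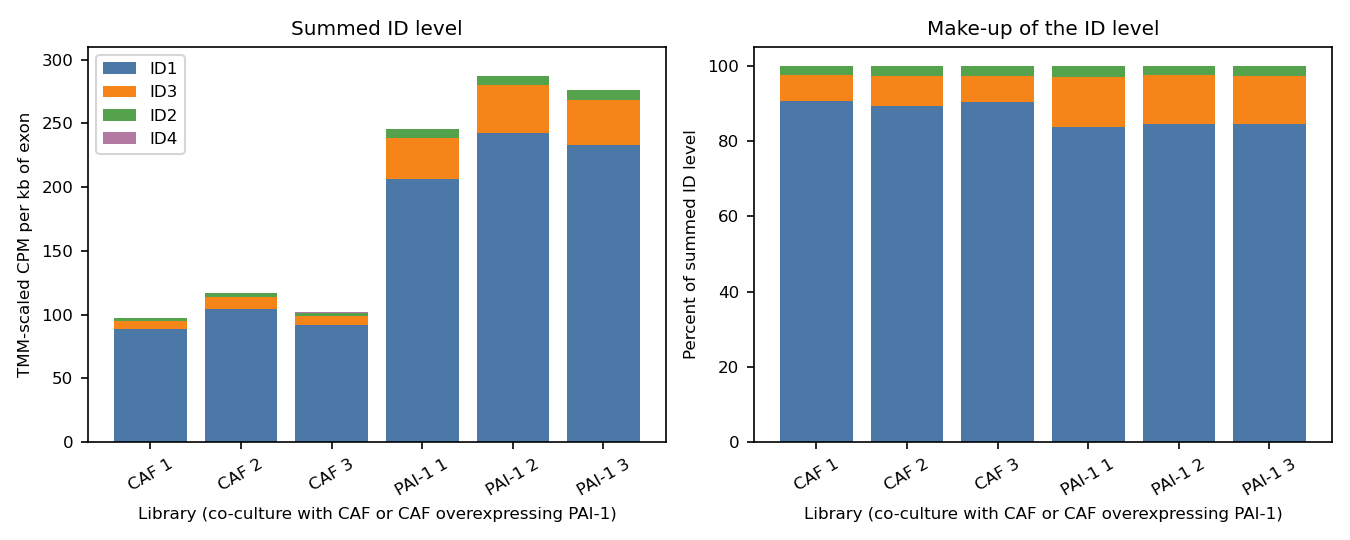
Stacked levels of the ID genes in each library, in TMM-scaled CPM per kilobase of exon on the left and as percent of their sum on the right. The sums lie between 97.4 and 117 in CAF libraries and between 246 and 287 in PAI-1 libraries, and the ID3 part of each bar is larger in the latter.

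The promoters of the 3 ID genes that rose are shown because they moved together. Each run is the RefSeq window on GRCh38.p14 from 250 bases before to 50 bases after the start site, 5′ to 3′ on the gene's strand: chr20:31605039-31605338 (plus) for ID1, chr2:8681806-8682105 (plus) for ID2 and chr1:23559452-23559751 (minus) for ID3. The ID2 and ID3 models of GENCODE begin upstream of these start sites. Capitals mark TATAAA and the EGR-type motif GCGNGGGCG on either strand.
ID1: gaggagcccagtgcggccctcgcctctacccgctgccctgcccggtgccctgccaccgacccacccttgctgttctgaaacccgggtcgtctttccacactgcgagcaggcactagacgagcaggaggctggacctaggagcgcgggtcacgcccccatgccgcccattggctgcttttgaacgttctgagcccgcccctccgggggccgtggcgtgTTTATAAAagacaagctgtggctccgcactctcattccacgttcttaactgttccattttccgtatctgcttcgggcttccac
ID2: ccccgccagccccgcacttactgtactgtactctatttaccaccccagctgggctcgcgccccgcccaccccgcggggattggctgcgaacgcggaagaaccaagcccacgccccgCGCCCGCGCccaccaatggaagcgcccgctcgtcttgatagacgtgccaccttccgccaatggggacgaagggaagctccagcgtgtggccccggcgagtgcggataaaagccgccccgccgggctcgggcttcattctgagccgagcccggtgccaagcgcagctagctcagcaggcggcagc
ID3: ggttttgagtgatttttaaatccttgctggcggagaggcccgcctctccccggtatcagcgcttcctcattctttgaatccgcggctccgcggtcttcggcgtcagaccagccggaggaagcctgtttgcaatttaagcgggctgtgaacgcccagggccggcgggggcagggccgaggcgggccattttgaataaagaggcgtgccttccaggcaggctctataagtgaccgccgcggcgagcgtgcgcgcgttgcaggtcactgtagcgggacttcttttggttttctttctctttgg

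The 7 motifs searched on both strands were GGCGCC and GTCT, cores bound by BMP or other SMADs, TGACGT, a part of the cyclic AMP element, the CArG box of serum response factor, GCGNGGGCG, TATAAA and the E-box CANNTG. ID1 held TATAAA on the plus strand from -31 to -26 and on the minus strand from -33 to -28, overlapping each other. This motif was found in 11.5% of the 35116 windows of the table, and 2 or more times in 2.36%. ID2 held 1 match to GCGNGGGCG from -134 to -126, found in 9.43% of windows, and 1 E-box, found in 68.7%. ID4 and BAMBI, both scarcely expressed, held 3 matches and 1 match to GCGNGGGCG, which 1.59% of windows hold 2 or more times. TATAAA was also held by ID4, from -29 to -24 on the plus strand, and ID4 and SMAD6 held 1 E-box each. GTCT was present 3 times in ID1 and 2 times each in ID2 and ID3. At least 1 GTCT is held by 84% of all windows, those of ID4, SMAD6 and BAMBI included, and 2 or more by 56.4%. None of the 3 windows held GGCGCC, present in 19.2% of all windows, or TGACGT, present in 7.98%, or a CArG box, present in 1.29%. BAMBI held GGCGCC 3 times, and SMAD6 and ID4 did not hold it. Among all windows 4.35% hold GGCGCC 2 or more times. Sites outside the windows were not searched, so absence here says nothing about more distant sequence. GC content was 62.7%, 69% and 59.7% for ID1, ID2 and ID3, and the median over all windows was 58.7%.

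**Figure D3:**
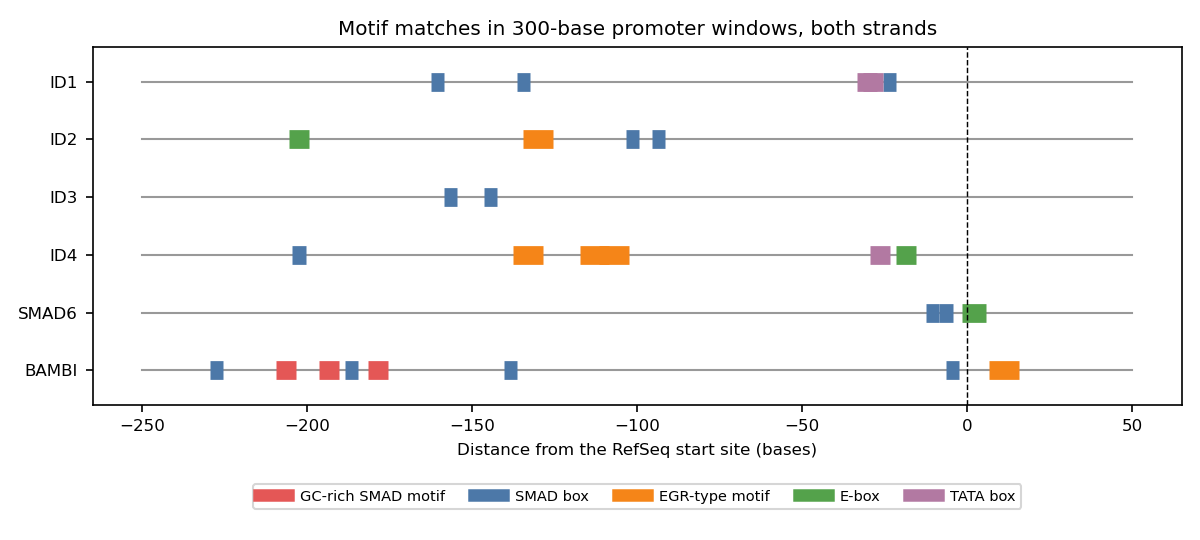
Motif matches in the promoter windows of ID1, ID2, ID3, ID4, SMAD6 and BAMBI by distance in bases from the RefSeq start site, on both strands. GTCT is seen in all 6 windows and GGCGCC in that of BAMBI alone. Sequence outside the windows was not searched.

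Receptor genes had smaller differences than the ID genes. BMPR2 (ENSG00000204217, chromosome 2, 202376936 to 202567751, plus strand) had 123, 129.7 and 132 CPM with CAF and 121, 97.9 and 108 CPM with CAF overexpressing PAI-1. The groups lay side by side without overlap, and PAI-1 replicate 2 was the lowest library. The log2 fold change was -0.23 (SE 0.066, adjusted p = 0.00595), or -0.17 (adjusted p = 0.023) without PAI-1 replicate 2. BMPR1A, a type I receptor gene (ENSG00000107779, chromosome 10, 86756601 to 86932838, plus strand), had 47.5, 55.7 and 53.8 CPM with CAF and 54.6, 53.5 and 57.0 CPM with PAI-1 overexpression. These values overlapped, with a log2 difference of 0.07 (SE 0.073, adjusted p = 0.478). BMPR1AP1 and BMPR1AP2, processed pseudogenes of BMPR1A, held at most 2 counts per library.

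Among the 8 tested genes of the receptor and co-receptor list, 2 rose, 1 fell and 5 were not called, beside 17.2% rising and 15.0% falling over all genes, with a median log2 fold change of 0.04. RGMB, a membrane-anchored co-receptor, rose by 0.32 (SE 0.081, adjusted p = 0.0026). ACVR1, a type I receptor, rose by 0.23 (SE 0.073, adjusted p = 0.0136), a call lost with library size alone (adjusted p = 0.082) or when CAF replicate 2 (0.0702) or PAI-1 replicate 1 (0.0698) was left out. ACVR2B, a type II receptor, had -0.39 (SE 0.16, adjusted p = 0.0569) and was called lower in 4 of 14 alternative analyses, those with library size alone (0.0258) or a mean of at least 1 CPM (0.05) and those without CAF replicate 2 (0.0402) or PAI-1 replicate 2 (0.0406). ACVR2A had 0.09, BMPR1B, at 0.75 and 0.70 CPM on average, -0.10 and ENG, the endoglin co-receptor, 0.01. None of these was called, and HJV was listed at 0 in every library.

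Of the SMADs that carry the BMP signal, SMAD1 rose, SMAD4 fell, and SMAD5 and SMAD9 were not called. The 1 rise and 1 fall among 4 tested genes stand beside 17.2% and 15.0% over all genes. SMAD5 (ENSG00000113658, chromosome 5, 136132845 to 136188747, plus strand) stood at 126, 123 and 123 CPM with CAF and 119, 111 and 123 CPM with CAF overexpressing PAI-1. The groups overlapped and the log2 difference was -0.07 (SE 0.058, adjusted p = 0.382). SMAD1 (ENSG00000170365, chromosome 4, 145481194 to 145558079, plus strand) had 7.46, 9.70 and 9.57 CPM with CAF and 11.4, 12.8 and 11.5 CPM with CAF overexpressing PAI-1. All PAI-1 libraries were above all CAF libraries, with CAF replicate 1 the lowest. SMAD1 rose by 0.42 (SE 0.14, adjusted p = 0.0171), and the call was lost without CAF replicate 1 (0.30, adjusted p = 0.128) and without PAI-1 replicate 2 (0.36, adjusted p = 0.0624). Per kilobase of exon SMAD5 was the more abundant of the pair, at 13.7 ± 0.19 against 1.47 ± 0.21 CPM per kilobase with CAF. SMAD4, the shared partner, fell from 36.8 ± 1.46 to 30.6 ± 3.38 CPM (log2 change -0.27, SE 0.086, adjusted p = 0.0168), a call lost without CAF replicate 2 (0.083) or PAI-1 replicate 1 (0.119). SMAD9 stood at 1.50 ± 0.14 and 1.66 ± 0.21 CPM and had 0.15 (SE 0.32, adjusted p = 0.755).

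Of the feedback brakes among the members, SMAD6 was not called and BAMBI was not tested. SMAD6 (ENSG00000137834, chromosome 15, 66702228 to 66782848, plus strand), which blocks type I receptors, had 4.19, 4.54 and 5.47 CPM with CAF and 4.74, 5.52 and 5.24 CPM with CAF overexpressing PAI-1. The groups overlapped, with a log2 difference of 0.13 (SE 0.18, adjusted p = 0.627). BAMBI (ENSG00000095739, chromosome 10, 28677342 to 28682939, plus strand), a decoy receptor without a kinase, held 1, 4 and 2 counts with CAF and 4, 0 and 1 with PAI-1 overexpression. At this depth no difference in BAMBI was detectable.

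Other intracellular brakes went both ways. Of 15 tested genes in that list, 6 rose, 3 fell and 6 were not called, beside 17.2% rising and 15.0% falling over all genes, with a median log2 fold change of 0.12. DESeq2 called 5 higher and 3 lower, beside 2246 higher and 1921 lower of 14378 over all genes. The rise that DESeq2 did not call was that of CTDSP1, a phosphatase that acts on SMADs, named after its values were seen, which had 0.16 (adjusted p = 0.0408) and was not called in 8 of 14 alternative analyses, among them library size alone (0.263) and the fits without CAF replicate 1, 2 or 3 (0.0503, 0.138 and 0.118) or PAI-1 replicate 2 or 3 (0.0803 and 0.106). TOB1, an antiproliferative protein that can damp BMP SMADs, went from 57.0 ± 1.58 to 22.0 ± 0.56 CPM (log2 change -1.37, SE 0.078, adjusted p = 1.19e-15). PMEPA1, an inhibitor of TGF-beta SMAD signalling, rose from 160.4 ± 6.03 to 245 ± 12.2 CPM (0.61, SE 0.056, adjusted p = 1.22e-10), SKIL, a SMAD corepressor, rose by 0.52 and SMURF2, a ubiquitin ligase for SMADs and receptors, by 0.37. CTDSP2 and CTDSPL, phosphatases of the same family, fell, at -0.48 and -0.36. FKBP1A, the most abundant gene of the list and a guard of type I receptors, had -0.06 (SE 0.052, adjusted p = 0.373).

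Among the BMP ligands, BMP4, BMP5 and BMP7 fell and BMP6 rose. Of 14 ligand genes 7 were tested, 3 of them falling, 1 rising and 3 not called, beside 15.0% falling and 17.2% rising over all tested genes, with a median log2 fold change of -0.55 against -0.0015. BMP4 went from 56.1 ± 2.12 to 29.1 ± 2.66 CPM (log2 change -0.94, SE 0.079, adjusted p = 1.62e-11) and BMP5 from 25.8 ± 0.90 to 14.4 ± 1.23 CPM (-0.85, SE 0.10, adjusted p = 4.67e-08). BMP7 fell from 7.51 ± 0.75 to 5.14 ± 0.48 CPM (-0.55, SE 0.17, adjusted p = 0.00987, or 0.0575 without CAF replicate 2). BMP6 went the other way, from 28.4 ± 0.58 to 42.3 ± 3.11 CPM (0.58, SE 0.082, adjusted p = 8.65e-07). BMP2, which stood at 0.69 ± 0.46 and 0.72 ± 0.28 CPM, and BMP8B, at 9.50 ± 0.49 and 8.29 ± 1.56 CPM, were not called. BMP3, at 0.84 ± 0.27 and 0.44 ± 0.41 CPM, was not called either (-0.86, SE 0.54, adjusted p = 0.227). It was called lower only without PAI-1 replicate 3 (adjusted p = 0.0337). BMP10, BMP15, GDF2 and GDF6 were listed at 0 throughout.

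The largest rise among the tested genes of the BMP lists other than ID3 was that of a secreted antagonist. NOG, which encodes noggin, a protein that binds BMPs and keeps them from their receptors, had 13.7 ± 0.52 CPM with CAF and 38.4 ± 3.25 CPM with CAF overexpressing PAI-1 (log2 change 1.49, SE 0.096, adjusted p = 2.84e-14). FSTL3, a follistatin-like binder of activins, rose by 0.62 (SE 0.079, adjusted p = 1.31e-07). NBL1, a secreted BMP antagonist also known as DAN, fell, at -0.43 (SE 0.076, adjusted p = 3.37e-05), as did TWSG1, a modulator of ligand release, at -0.20 (SE 0.065, adjusted p = 0.0189), though without CAF replicate 2, CAF replicate 3 or PAI-1 replicate 1 TWSG1 was not called (adjusted p = 0.059, 0.0898 and 0.0611). Of 17 genes of the list 5 were tested, 2 rising and 2 falling, beside 17.2% and 15.0% over all genes, and BMP1, a protease that cleaves the antagonist chordin, had 0.02.

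**Figure D4:**
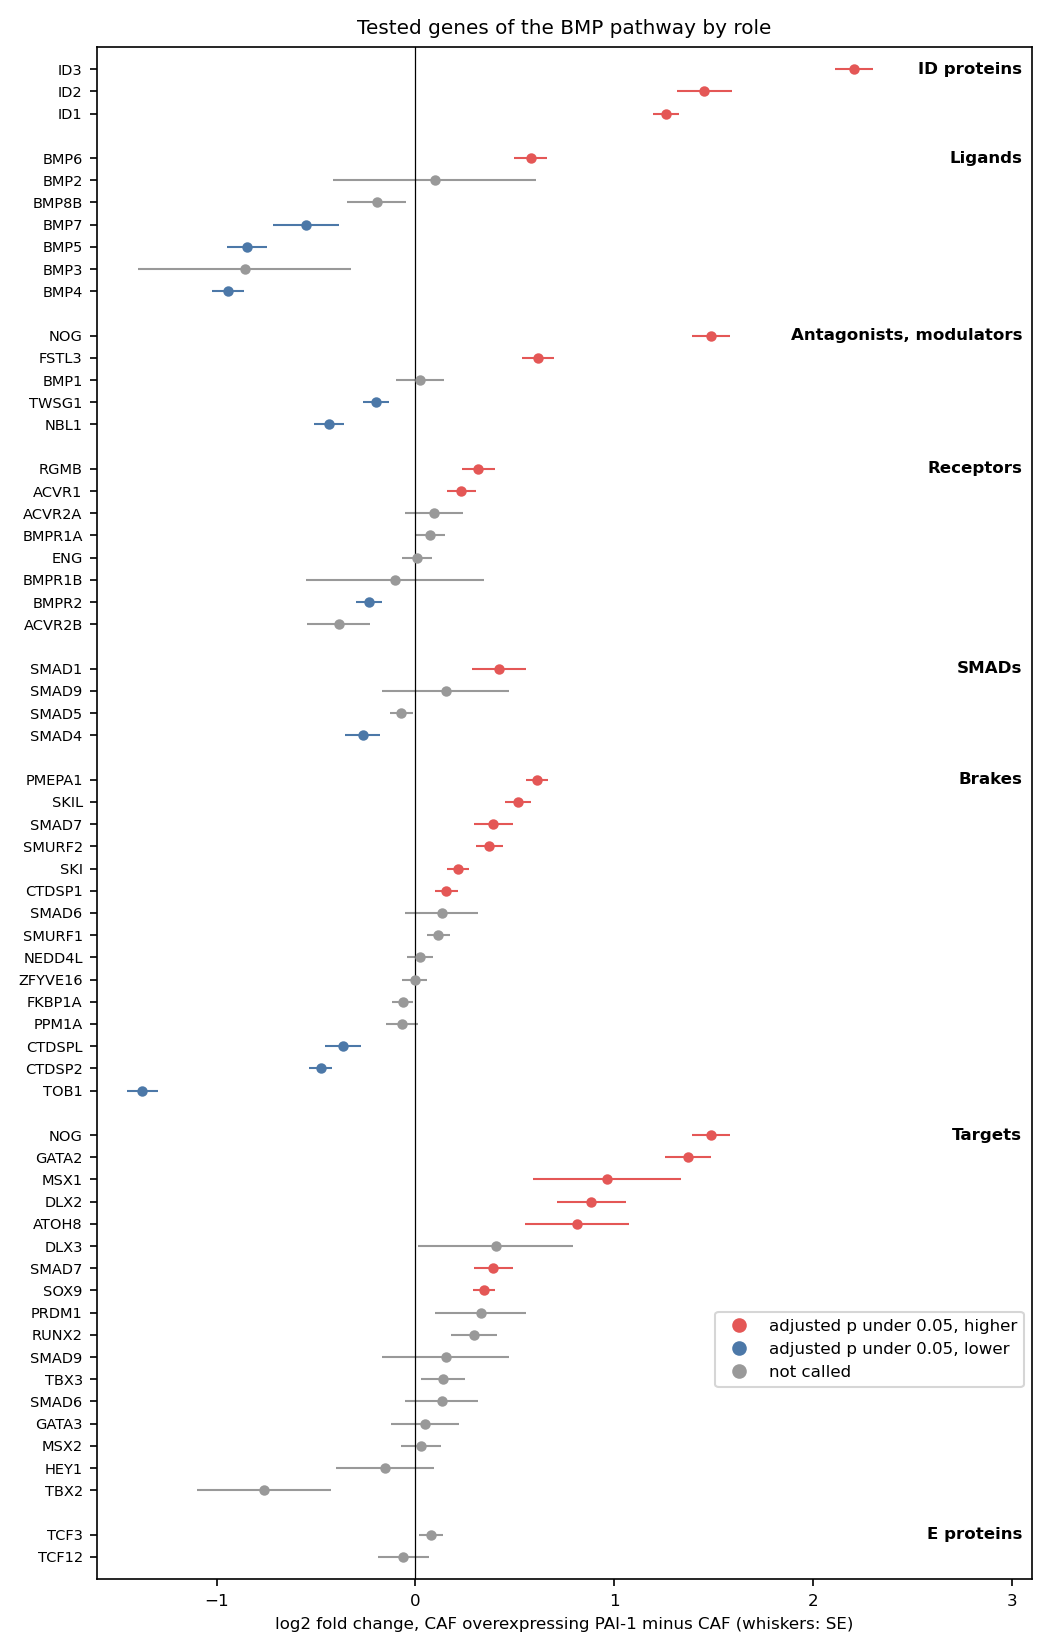
Log2 fold change with SE for tested genes of the BMP lists and E proteins by role, with genes that rose in red, genes that fell in blue and uncalled genes in grey. NOG, SMAD6, SMAD7 and SMAD9 appear in 2 groups. ID3 lies furthest to the right at 2.20, followed by NOG at 1.49 and ID2 at 1.45, and TOB1 lies furthest to the left at -1.37.

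Target genes of BMP signalling other than the ID genes rose in part. Of 17 tested genes 7 rose, 0 fell and 10 were not called, beside 17.2% rising and 15.0% falling over all genes, and the median log2 fold change was 0.33. At an unadjusted edgeR p under 0.05, 8 were higher and 1 lower, TBX2, at -0.76 (SE 0.34, adjusted p = 0.0802). Over all genes, 6178 of 14960 passed that unadjusted cutoff in either direction. DESeq2 called 6 higher and 0 lower and limma-voom 7 and 0. Over all genes DESeq2 called 2246 higher and 1921 lower of 14378, and limma-voom 2545 and 2203 of 14960. GATA2, a zinc finger factor, went from 9.33 ± 0.92 to 24.2 ± 2.07 CPM (1.37, SE 0.12, adjusted p = 1.72e-11). DLX2, a homeobox factor, rose by 0.88 (SE 0.17), SMAD7, an inhibitory SMAD of both pathway branches, by 0.39 (SE 0.097) and SOX9, a factor of pancreatic duct and progenitor cells, by 0.34 (SE 0.056). NOG, counted above as an antagonist, is also in this list. ATOH8, a helix-loop-helix factor, rose by 0.81 (SE 0.26, adjusted p = 0.0157, or 0.0822 without CAF replicate 2 and 0.0993 without PAI-1 replicate 3). MSX1, named after its values were seen as the remaining riser, was at 0.88 ± 0.32 and 1.74 ± 0.46 CPM and was not called in 8 of 14 alternative analyses, DESeq2 (adjusted p = 0.0886) and the fits without replicate 2 or 3 of CAF (0.195 and 0.0963) or of PAI-1 (0.211 and 0.0775) among them.

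The E proteins, which ID proteins bind, were not called. TCF3, the E protein gene for E12 and E47, had 103 ± 4.35 and 108 ± 3.39 CPM (log2 difference 0.08, SE 0.060, adjusted p = 0.356), and TCF12 had 92.0 ± 3.65 and 88.0 ± 17.3 CPM (-0.06, SE 0.13, adjusted p = 0.763). TCF4, at 0.29 and 0.50 CPM on average, was not tested. No E protein gene was called by DESeq2 or limma-voom or had an unadjusted edgeR p under 0.05. Among 24 other helix-loop-helix genes 9 were tested, of which 4 rose and 2 fell, beside 17.2% and 15.0% over all genes, and 10 of the 24 had no count in any library. BHLHE40, a repressor tied to hypoxia and the clock, rose from 128 ± 1.87 to 243 ± 7.95 CPM (0.92, SE 0.055, adjusted p = 3.54e-15), HES1 and HES4, repressors linked to NOTCH, rose by 1.13 and 0.87, and HEYL by 0.74, with HEYL not called without replicate 1 of CAF (adjusted p = 0.0506) or of PAI-1 (0.0537). BHLHE41 and HES7 fell, at -0.24 and -0.40, but BHLHE41 was not called without replicate 3 of CAF (adjusted p = 0.175) or of PAI-1 (0.154). HES7 was not called by DESeq2 (adjusted p = 0.0707) or without CAF replicate 2 or 3 or PAI-1 replicate 1 or 3 (0.0657, 0.147, 0.214 and 0.13).

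In the TGF-beta and activin branch, which uses SMAD2 and SMAD3 in place of SMAD1 and SMAD5, 4 of 6 tested receptor and SMAD genes fell and 0 rose by edgeR, beside 15.0% and 17.2% over all genes. The numbers were 4 and 0 at an unadjusted p under 0.05, 4 and 0 by DESeq2 and 4 and 0 by limma-voom. Over all genes, 6178 of 14960 had an unadjusted edgeR p under 0.05 in either direction. DESeq2 called 1921 lower and 2246 higher of 14378, and limma-voom 2203 and 2545 of 14960. TGFBR2, the type II TGF-beta receptor, had -0.31 (SE 0.058, adjusted p = 6.94e-05), ACVR1B, an activin type I receptor, -0.46 (SE 0.077), the co-receptor TGFBR3 -0.61 (SE 0.17) and SMAD3 -0.20 (SE 0.059, adjusted p = 0.0092). SMAD3 was not called without CAF replicate 1 (adjusted p = 0.0922) or PAI-1 replicate 3 (0.0587). TGFBR1 and SMAD2 had -0.01 and 0.01 and were not called.

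**Figure D5:**
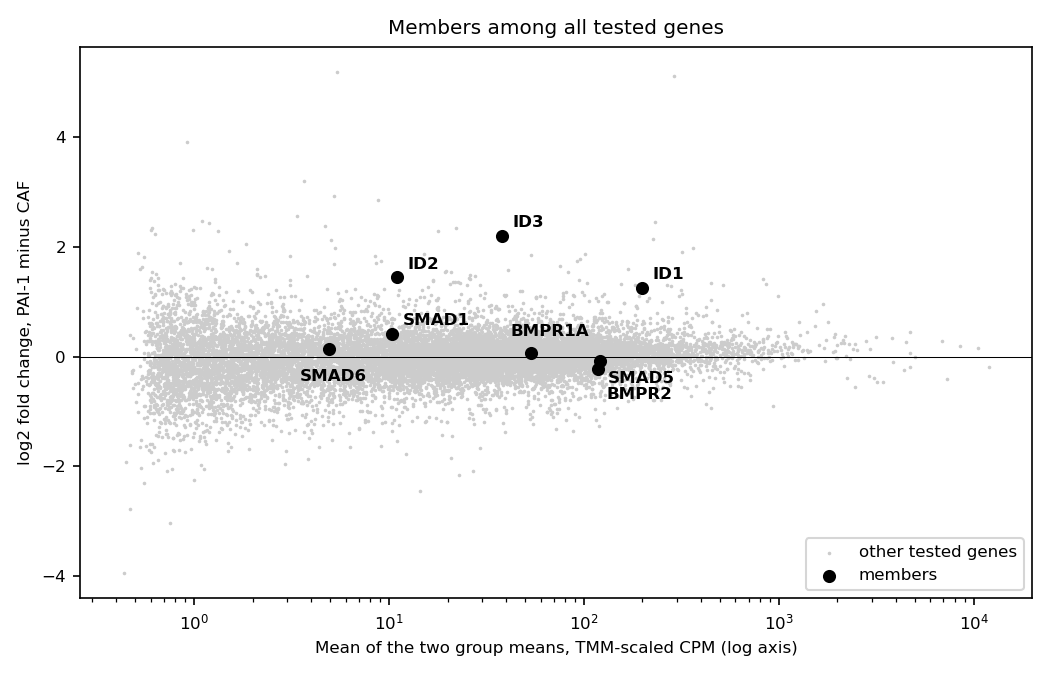
Log2 fold change against mean level in TMM-scaled CPM (log axis) for 14960 tested genes, with the 8 tested members in black. ID3, ID2 and ID1 rank 19, 61 and 101 by rise, while SMAD5, SMAD6 and BMPR1A lie within the grey band around 0.

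The genes whose levels ran most like those of ID3 over the 6 libraries, by Pearson's r of log2 CPM among 10951 other genes with at least 5 CPM, were NIFK (r = 0.9997), GARS (0.9987) and PDXK (0.9986). These rose by 0.73, 0.79 and 0.27, much less than ID3. For ID2 the nearest were TOP1, LAT2 and GABPB1 (r = 0.9982, 0.9977 and 0.9971), which rose by 0.36, 1.03 and 0.46. With 6 libraries in 2 groups any gene that differs evenly between groups scores high, and 293 genes exceeded r = 0.98 for ID3 and 217 for ID2, so these values describe the libraries only.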

How the data were processed

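RNA was selected with oligo-dT beads, per the labels' protocols. The authors deposited 1 table of whole-number read counts per gene for the 6 libraries. BWA, Bowtie2, RSEM and hg19 are named, per the submitters' processing notes, without roles; how reads were counted, with or without strand, was not given in the sources used here, so values of overlapping genes are uncertain. All 58735 identifiers are in GENCODE release 29 on GRCh38, whose coordinates identify genes here. Table columns headed CAF-NC were read as the CAF group and those headed CAF-PAI-1 as the PAI-1 group. Within a group they were matched to libraries by replicate number. The headers do not say what NC stands for.

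Counts were tested with edgeR 4.0.16 (filterByExpr with minimum count 10 and minimum total 15, TMM scaling, robust glmQLFit, glmQLFTest, no covariates), adjusted over 14960 genes. The SE was worked back from the test, as the size of the unshrunken log2 coefficient divided by the square root of the F statistic. The log2 fold changes printed are edgeR's slightly shrunken ones. The depth of 13628508 to 16006880 counts makes 3 counts 0.187 to 0.22 CPM before TMM scaling, and intervals of this kind cover counting error only. Replicates of a group differed by more than sampling noise (chi-square per degree of freedom 2.58 to 9.51). On data simulated from this comparison with 14721 genes tested, the test called 78 of 100 genes given a 2-fold change and 67 of 100 given a 1.5-fold change, and 7 of 152 calls were false. Only those genes were changed, evenly up and down, far fewer than the 4810 called in the real data. The simulated rates need not hold for the real comparison.

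Each choice was also varied: scaling by RLE or by library size alone, 2 other filters, DESeq2 1.42.0, limma-voom (limma 3.58.1), no robust estimation, a replicate block and each library left out. Members and the 10 gene lists were chosen with earlier results of these data known, so counts in lists are descriptions. Members were all named; from each list the 6 tested genes with the smallest p, the 2 most abundant and small sets at 0 could be named, and others are marked or complete a count. Correlations used log2(CPM + 0.5). Promoters are RefSeq windows on GRCh38.p14; protein sequences were not used here. The level of the overexpressed gene is not reported here.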

Additional observations from a re-analysis of the deposited data

How the results depend on the processing

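ID1, ID2, ID3 and BMPR2 kept their direction and call in all 14 alternative analyses, with log2 fold changes of 1.19 to 1.34, 1.35 to 1.59, 2.11 to 2.36 and -0.32 to -0.17. SMAD5, SMAD6 and BMPR1A were called in none of them. SMAD1 was not called without CAF replicate 1 (adjusted p = 0.128) or PAI-1 replicate 2 (0.0624), and its value lay between 0.30 and 0.49 over the fits that left out 1 library. The number of members called was 5, or 4 to 5 with 1 library left out. In the list of BMP SMADs with SMAD4, 2 of 4 tested genes were called, beside 32.2% over all genes. With 1 library left out the number called ranged from 1 to 2. It was 1 without CAF replicate 1, CAF replicate 2, PAI-1 replicate 1 or PAI-1 replicate 2. Fewer samples entered those fits, and further causes were not tested. Library size alone moved the median log2 fold change of all genes from -0.0015 to -0.068 and ended no member's call. Over all genes, 3942 to 4673 were called with 1 library left out, against 4810. The replicate numbers showed no clear pairing, as deviations of same-numbered libraries correlated at only 0.0023, 0.012 and 0.0063. Each CAF library correlated best with its own number, but PAI-1 replicate 1 correlated best with CAF replicate 3 (0.0047). These values do not settle whether replicates were paired. With the replicate number as a block 5069 genes and 5 members were called, and ID1, ID2, ID3, SMAD1 and BMPR2 had 1.26, 1.46, 2.21, 0.42 and -0.24. Without a filter on low counts ID4 and BAMBI could be tested and were not called (DESeq2 was not run on them), with edgeR adjusted p = 0.776 and 0.875. Depth limits ID4 and BAMBI, which held at most 4 counts per library.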
